A study of Homo sapiens with 6 samples.

Results

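The phagocyte NADPH oxidase genes CYBB, CYBA, NCF1, NCF4 and RAC2 were followed in EoL-1, a human cell line from an eosinophilic leukaemia. They were chosen by symbol, as 5 of the 35052 genes with a transcript in the deposited tables, and all 5 were among the 13131 genes with enough reads to be tested. The tested cells were an EoL-1 derivative in which ATF3, a stress-induced transcription factor, had been targeted with CRISPR/Cas9 (3 libraries, called ATF3 knockout in the sample labels and a knockdown derivative in the series' design text), and wild-type EoL-1 cells gave the other 3 libraries. Both genotypes were grown in the same serum-supplemented RPMI medium with no further treatment in the labels. Whether replicates of a genotype came from different cultures or clones is not in the labels, and the p-values therefore reflect library-to-library spread, which may be technical. Each library held 26766103 to 30117281 estimated reads of polyadenylated RNA.

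ATF3 mRNA was lower in every knockout library but was still present. It had 146, 229 and 132 reads in knockout replicates 1 to 3, against 634, 462 and 632 reads in wild-type replicates 1 to 3 (log2 fold change -1.75, SE 0.25, edgeR adjusted p = 0.0098). The labels call the cells eosinophils, and the defining markers bear this out only in part. Of 8 eosinophil markers, CLC and IL5RA were listed at 0 in every library, EPX, SIGLEC8 and CCR3 stayed below 1 CPM (reads scaled to library size by TMM factors), and RNASE2 and RNASE3 carried nearly all of the signal. The summed level of these markers was 116 to 182 CPM in knockout and 36.6 to 51.9 CPM in wild type. Of 8 monocyte and macrophage markers, CD14 and MRC1 stayed below 1 CPM in every library, while CSF1R and LYZ rose, and the summed level was 610 to 1288 CPM in knockout and 141 to 593 CPM in wild type. Of 7 neutrophil and granule markers with a transcript in the tables, ELANE, AZU1, PRTN3, FCGR3B and LTF were listed at 0 and MPO rose, with a sum of 153 to 166 CPM in knockout and 72.4 to 87.0 CPM in wild type. Lymphocyte markers had no called gene (132 to 173 CPM in knockout, 113 to 136 CPM in wild type), and of the erythroid and megakaryocyte markers ITGA2B alone was tested and rose, at 1.42 CPM in knockout and 0.429 CPM in wild type on average. The part of these shifts in the results below was not tested. In RNA from whole cultures, fewer cells that express a gene and less RNA of it per cell cannot be told apart.

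The oxidase moves electrons from NADPH in the cytosol across a membrane to oxygen and so makes superoxide, which phagocytes, eosinophils among them, use against microbes. Its core is a membrane flavocytochrome, in which the product of CYBB carries the electrons and the product of CYBA is its stabilising partner and docking site. On activation, the organiser encoded by NCF1, the modulator encoded by NCF4 and the GTPase RAC2 are among the proteins that move from the cytosol to that core. Loss of the product of CYBB, CYBA, NCF1 or NCF4 in people causes chronic granulomatous disease.

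The subunit genes did not move together in ATF3 knockout cells. CYBB, the catalytic subunit gene, fell about 2.09-fold, and NCF1, the organiser gene, rose about 3.88-fold, while CYBA, NCF4 and RAC2 did not pass the test. Thus 2 of the 5 genes were called, 1 lower and 1 higher, beside 21.1% of all genes tested (11.4% higher and 9.72% lower). In 4 of the 5 genes the knockout and wild-type libraries did not overlap, beside 43.5% of all genes tested: CYBA, NCF1 and RAC2 lay wholly higher in knockout (22.2% of all genes tested) and CYBB wholly lower (21.4%). The median log2 fold change of the 5 genes was 0.17, against 0.01 over all genes tested. Without wild-type replicate 1 no gene of the whole table was called, the smallest edgeR adjusted p being 0.0503, so each call given here was lost at that setting. There 3496 genes had an unadjusted p under 0.05, and this loss is not repeated at each gene.

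**Figure D1:**
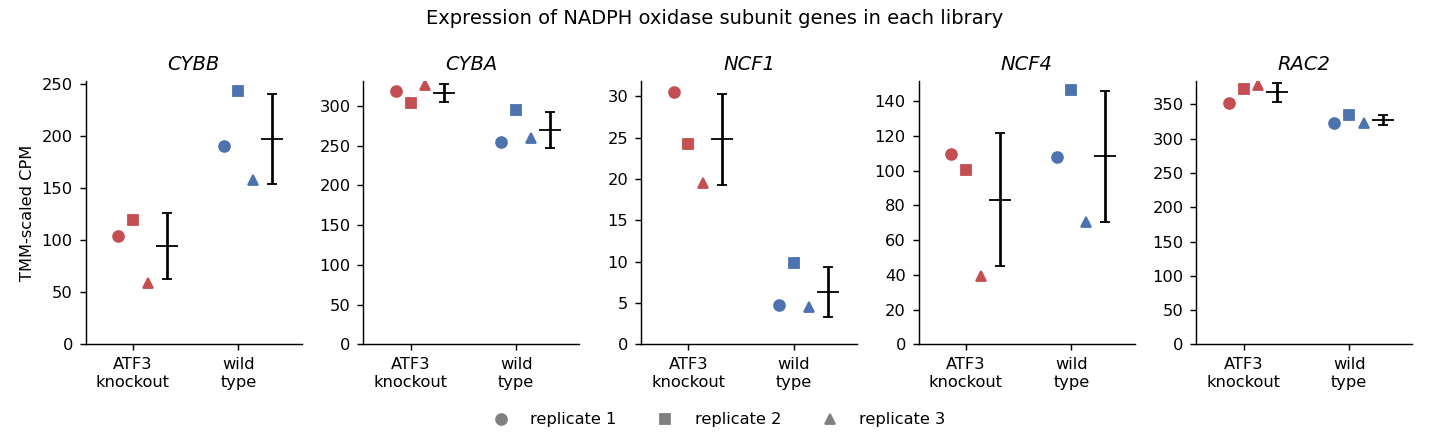
TMM-scaled CPM (y axis, from 0, with its own scale for each gene) of the 5 subunit genes in the 3 ATF3 knockout libraries (left, red) and the 3 wild-type libraries (right, blue), with the mean and SD of each group in black. CYBB lies lower and NCF1 higher in every knockout library than in any wild-type library, while the NCF4 groups overlap.

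CYBB (ENSG00000165168.7, chromosome X, 37780011 to 37813461 on the plus strand of GRCh38) held 104, 120 and 59.2 CPM in knockout replicates 1 to 3, against 191, 244 and 158 CPM in wild-type replicates 1 to 3. Knockout replicate 3 was the lowest of the 6 libraries and wild-type replicate 2 the highest, and the groups did not overlap. The means were 94.3 ± 31.4 CPM in knockout and 197 ± 43.4 CPM in wild type (SD, n = 3 each). The log2 fold change was -1.07 (SE 0.27, 95% interval -1.71 to -0.42, edgeR adjusted p = 0.0354). Permuting the libraries (exact, two-sided, on log2 CPM) returned p = 0.1, which is the lowest reachable with 3 against 3. Only 1.52% of the genes tested had a more negative fold change. The call was lost without wild-type replicate 2 (-0.89, edgeR adjusted p = 0.084), wild-type replicate 3 (-1.21, 0.0696), knockout replicate 1 (-1.15, 0.0801) or wild-type replicate 1 (-1.09, 0.107), with the same sign in each. Almost all reads belonged to the full-length protein-coding transcript ENST00000378588.4, which held 99.9% ± 0.072 of the gene's reads in knockout and 99.8% ± 0.049 in wild type (SD, n = 3 each).

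CYBA (ENSG00000051523.10, chromosome 16, 88643283 to 88651152 on the minus strand) did not follow its partner. It held 319, 304 and 326 CPM in knockout replicates 1 to 3, against 255, 295 and 260 CPM in wild-type replicates 1 to 3. The knockout libraries all lay above the wild-type libraries, but wild-type replicate 2 came close to knockout replicate 2. The means were 316 ± 11.4 CPM in knockout and 270 ± 22.3 CPM in wild type (SD, n = 3 each). The log2 fold change was 0.23 (SE 0.08, 95% interval 0.05 to 0.40), which did not pass adjustment over all genes (edgeR adjusted p = 0.0702). It passed with DESeq2 (0.22, adjusted p = 0.0387) and without wild-type replicate 2 (0.30, edgeR adjusted p = 0.0321). The interval does not hold the fold change of CYBB. The main protein-coding transcript ENST00000261623.8 held 86.5% ± 1.36 of the reads in knockout and 86.9% ± 0.44 in wild type (SD, n = 3 each).

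NCF1 (ENSG00000158517.13, chromosome 7, 74773962 to 74789315 on the plus strand) encodes the organiser that, once phosphorylated, docks the cytosolic subunits on the core. Its reads are hard to assign because the same chromosome carries the pseudogene copies NCF1B (73220624 to 73235945, plus strand) and NCF1C (75156639 to 75172044, minus strand). In the NCF1C transcript and in 2 of the 3 NCF1B transcripts of GENCODE 29, 1 of the GT pairs that open exon 2 of NCF1 is missing, and the stretch across the boundary of exons 1 and 2 is printed to show how little else tells them apart. The remaining NCF1B transcript, ENST00000435988.1, spells both GT pairs and was assigned at most 14.4 reads in a library. Each line gives 30 bases on either side of that boundary, for NCF1B from ENST00000423083.1, 5′ to 3′ on the strand of the gene, with the GT pairs at the start of exon 2 in capitals.
NCF1: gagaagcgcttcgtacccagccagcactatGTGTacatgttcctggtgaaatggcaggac
NCF1B: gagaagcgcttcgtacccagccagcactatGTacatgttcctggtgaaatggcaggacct
NCF1C: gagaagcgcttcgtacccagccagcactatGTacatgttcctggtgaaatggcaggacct
Exon 2 is 81 bases long in NCF1 (74777267 to 74777347) and 79 bases long in both that NCF1B transcript (73223878 to 73223956) and NCF1C (75168632 to 75168710). Over 1394 aligned bases the main NCF1 transcript differed from that of NCF1C at 8 bases, an identity of 99.4%. Of the 1366 stretches of 31 bases in the NCF1 transcript, 8.35% were found in no NCF1B or NCF1C transcript. These comparisons used the GENCODE 29 version of the NCF1 transcript, ENST00000289473.8 (1396 bases). The deposited reads were assigned to a longer version, ENST00000289473.9 (1458 bases), for which the shares were not computed. The division of reads among the 3 loci is therefore uncertain, and their sum is given beside NCF1.

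NCF1 held 30.5, 24.3 and 19.6 CPM in knockout replicates 1 to 3, against 4.72, 9.84 and 4.56 CPM in wild-type replicates 1 to 3. Every knockout library lay above every wild-type library, and wild-type replicate 2 stood above the other wild-type libraries. The means were 24.8 ± 5.48 CPM in knockout and 6.37 ± 3.00 CPM in wild type (SD, n = 3 each). The log2 fold change was 1.96 (SE 0.33, 95% interval 1.18 to 2.73, edgeR adjusted p = 0.0126), and 0.495% of the genes tested had a larger one. The exact permutation test gave p = 0.1, its smallest value. The call was lost without wild-type replicate 1 (1.78, edgeR adjusted p = 0.0631) or wild-type replicate 3 (1.76, 0.054).

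The sum of NCF1, NCF1B and NCF1C rose as well. It came to 1897, 1524 and 1399 reads in knockout replicates 1 to 3, against 364, 769 and 366 reads in wild-type replicates 1 to 3. The summed log2 fold change was 1.72 (SE 0.31, 95% interval 0.99 to 2.45, edgeR adjusted p = 0.0145), a value that does not depend on how reads were divided among the loci. Within the sum, 41.8%, 43.8% and 40.8% of the reads were assigned to NCF1 in knockout replicates 1 to 3, against 36.0%, 36.4% and 34.2% in wild-type replicates 1 to 3. NCF1C alone rose by 1.76 (SE 0.32, edgeR adjusted p = 0.0144) to 24.1 ± 5.21 CPM in knockout, against 7.14 ± 3.22 CPM in wild type (SD, n = 3 each). NCF1B rose by 1.19 (SE 0.31, edgeR adjusted p = 0.0359). The protein-coding transcript ENST00000289473.9 held 85.2% ± 2.59 of the NCF1 reads in knockout and 90.2% ± 1.84 in wild type (SD, n = 3 each).

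**Figure D2:**
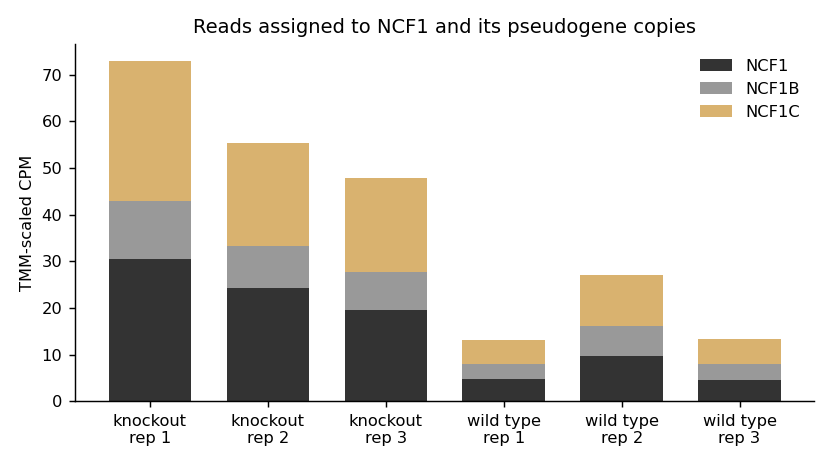
TMM-scaled CPM (y axis, from 0) assigned to NCF1 and to its pseudogene copies NCF1B and NCF1C, stacked for each of the 6 libraries, with no error bars since each bar is a single library. The stacks of the knockout libraries reach 73.0, 55.4 and 48.0 CPM, against 13.1, 27.02 and 13.3 CPM in the wild-type libraries.

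NCF4 (ENSG00000100365.14, chromosome 22, 36860988 to 36878015 on the plus strand) encodes the modulator that binds phosphatidylinositol 3-phosphate on phagosome membranes. It held 110, 101 and 39.4 CPM in knockout replicates 1 to 3, against 108, 146 and 70.6 CPM in wild-type replicates 1 to 3. The groups overlapped, and the spread inside each group was wide, with replicate 3 the lowest in both. The means were 83.2 ± 38.3 CPM in knockout and 108 ± 37.9 CPM in wild type (SD, n = 3 each). The log2 fold change was -0.38 with a 95% interval from -1.35 to 0.59 (edgeR adjusted p = 0.542), and that interval holds the fold change measured for CYBB. Unlike the total, the split of NCF4 reads between its protein-coding transcripts did not overlap between the groups. It varied more in knockout (SD 8.53 percentage points) than in wild type (SD 0.52). Each of the other subunit genes also had a transcript whose share did not overlap, and the proportion over all transcripts was not computed. The transcript ENST00000397147.7 held 24.3%, 40.3% and 27.1% of the NCF4 reads in knockout replicates 1 to 3, against 20.0%, 20.1% and 19.2% in wild-type replicates 1 to 3. The rest belonged to ENST00000248899.11, and these shares did not overlap between the groups (exact permutation p = 0.1, the smallest this design allows, unadjusted for the other transcripts compared). The annotation gives NCF4-AS1 on the opposite strand, with 27 shared exon bases.

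RAC2 (ENSG00000128340.14, chromosome 22, 37225261 to 37244448 on the minus strand), the haematopoietic GTPase that completes the active complex, had the smallest fitted fold change of the 5 genes. It held 352, 372 and 378 CPM in knockout replicates 1 to 3, against 323, 335 and 323 CPM in wild-type replicates 1 to 3. All knockout libraries lay above all wild-type libraries, with means of 367 ± 13.4 CPM in knockout and 327 ± 6.86 CPM in wild type (SD, n = 3 each). The log2 fold change was 0.17 (SE 0.06, 95% interval 0.04 to 0.30) and did not pass (edgeR adjusted p = 0.0714), while DESeq2 called it (0.16, adjusted p = 0.0313). The transcript ENST00000249071.11 held 80.3% ± 1.25 of the reads in knockout and 79.7% ± 1.31 in wild type (SD, n = 3 each).

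**Figure D3:**
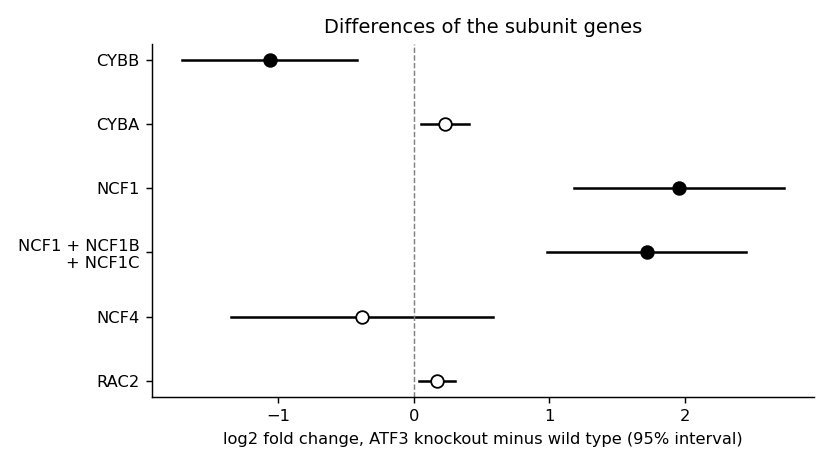
Log2 fold change (x axis), ATF3 knockout minus wild type, of each subunit gene and of the sum of NCF1 with its copies, with 95% intervals from the edgeR fit. Filled points passed an adjusted p of 0.05, so that CYBB at -1.07, NCF1 at 1.96 and the NCF1 sum at 1.72 are filled.

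In wild type all 5 genes were highest in replicate 2, a library that lay nearer to the knockout libraries on the first principal component of log2 CPM (-13.5, against -37.9 and -34.9 for wild-type replicates 1 and 3, and 21.0 to 35.5 in knockout). In knockout, CYBB, NCF1 and NCF4 were lowest in replicate 3, and CYBA and RAC2 were highest there.

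Levels of different genes were compared on TPM (Salmon's abundance unit, which accounts for transcript length), summed per gene. CYBA was the most abundant subunit mRNA in every library, at 602 ± 12.6 TPM in knockout and 492 ± 41.7 TPM in wild type (SD, n = 3 each). RAC2 came second in every library, at 356 ± 11.3 TPM in knockout and 304 ± 11.03 TPM in wild type, and NCF4 followed, at 61.9 ± 29.4 TPM in knockout and 78.4 ± 27.6 TPM in wild type. The steps between CYBA, RAC2 and NCF4 were larger than the spread between libraries. CYBB and NCF1 were lowest, and their order differed between the groups. In wild type CYBB stood above NCF1 in every library, at 42.2 ± 9.28 TPM against 4.77 ± 2.18 TPM for NCF1. In knockout CYBB had 23.0, 26.7 and 12.6 TPM in replicates 1 to 3 and NCF1 had 27.4, 20.6 and 16.2 TPM, so neither was steadily above the other as the reads were assigned. This order rests on the uncertain division among the loci. NCF1, NCF1B and NCF1C together had 62.8, 46.4 and 38.8 TPM in knockout replicates 1 to 3, against 10.02, 20.7 and 10.5 TPM in wild-type replicates 1 to 3. That sum lay above CYBB in every knockout library and below it in every wild-type library. NCF4 in knockout replicate 3 had 28.3 TPM, close to the NCF1 level of knockout replicate 1.

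**Figure D4:**
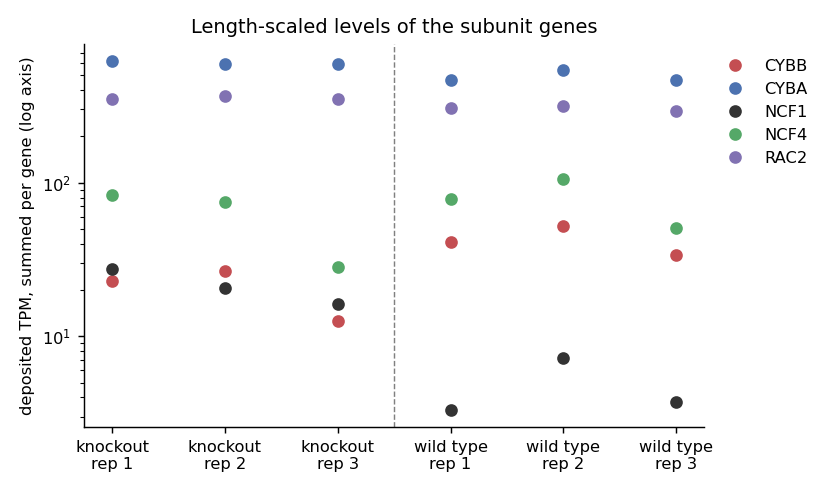
Deposited TPM summed per gene (y axis, log scale) of the 5 subunit genes in each library, knockout left and wild type right of the dashed line, 1 point per library. CYBA and RAC2 lead in every library, and the distance between CYBB and NCF1 seen in wild type is absent in knockout, as the reads were assigned to NCF1 without its copies.

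The balance between subunit mRNAs was set out as ratios of TPM within a library, a comparison chosen after the values were seen. The catalytic CYBB stood to its partner CYBA at 0.0374, 0.0448 and 0.0213 in knockout replicates 1 to 3, against 0.0873, 0.0964 and 0.0722 in wild-type replicates 1 to 3. The groups did not overlap, and the mean log2 ratio differed by -1.36. CYBB stood to NCF1 at 0.841, 1.30 and 0.780 in knockout, against 12.4, 7.16 and 9.02 in wild type, a log2 difference of -3.29. With the sum of the 3 NCF1 loci in place of NCF1, this ratio was 0.367, 0.575 and 0.326 in knockout, against 4.09, 2.52 and 3.21 in wild type, a log2 difference of -2.97. NCF1 stood to NCF4, its neighbour in the cytosolic complex, at 0.332, 0.275 and 0.574 in knockout, against 0.0421, 0.0688 and 0.0737 in wild type, a log2 difference of 2.65, and of 2.33 with that sum. CYBA stood to RAC2 at 1.69 ± 0.070 in knockout and 1.62 ± 0.095 in wild type (SD, n = 3 each), and these values overlapped. Over the 10 possible pairs, 7 did not overlap between the groups. All of these hold CYBB or NCF1, the called genes, so the count restates those differences. The share over gene pairs in general was not computed. Each of the 7 had an exact two-sided permutation p of 0.1, the smallest possible, and 0.143 after Benjamini-Hochberg adjustment over the pairs, so none passed.

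Of 14 other subunits and relatives of the NADPH oxidase family, 7 had enough reads to be tested, and 1 of these rose, beside 11.4% higher and 9.72% lower over all genes tested. The median log2 fold change was 0.19. CYBC1, a chaperone of the endoplasmic reticulum that the flavocytochrome needs to accumulate, rose by 0.39 (SE 0.08, edgeR adjusted p = 0.0212). It held 192, 177 and 200 CPM in knockout replicates 1 to 3, against 136, 159 and 139 CPM in wild-type replicates 1 to 3. The call was lost with effective length as an offset (adjusted p = 0.104) and on omission of wild-type replicate 3 (0.09) or of knockout replicate 1 (0.0627). RAC1, the broadly expressed relative of RAC2, held 147 ± 5.35 CPM in knockout and 147 ± 3.11 CPM in wild type, and its interval ran from -0.13 to 0.13. RAC1 was named for its role, after its values were seen. Of the catalytic relatives of CYBB, NOX1 and NOX3 were listed at 0 in every library, NOX4 reached at most 0.109 CPM and NOX5 at most 0.180 CPM, and DUOX1 and DUOX2 were tested without a call.

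RAC2 is kept inactive by guanine dissociation inhibitors, loaded with GTP by exchange factors and switched off by GTPase-activating proteins. Of 13 tested genes of the RAC family and its regulators, 2 rose and 1 fell, beside 11.4% higher and 9.72% lower over all genes tested, with a median of 0.00. The 3 calls are thus close to the 21.1% called over all genes. ARHGDIB, the dissociation inhibitor of blood cells, rose by 0.37 (SE 0.09, edgeR adjusted p = 0.032) to 672 ± 15.9 CPM in knockout, against 521 ± 63.1 CPM in wild type (SD, n = 3 each). RHOG, a GTPase upstream of RAC, rose by 0.38 (SE 0.09, adjusted p = 0.0248), and ARHGAP25, a GTPase-activating protein of RAC in phagocytes, fell by 0.29 (SE 0.08, adjusted p = 0.0496). The ARHGAP25 call was lost on omission of any single library (edgeR adjusted p 0.0557 to 0.169), with no filter (0.0709), with limma-voom (0.0547) and with effective length as an offset (0.152), which also ended the calls of RHOG (0.0501) and ARHGDIB (0.0636). The list held 1 called gene with that offset, 1 without wild-type replicate 2, knockout replicate 1 or knockout replicate 3, and 0 without wild-type replicate 3 or knockout replicate 2. The exchange factor genes VAV1, PREX1 and DOCK2 had log2 fold changes of 0.01, 0.01 and -0.02 and were not called.

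The cytosolic subunits are phosphorylated before assembly, and products of phosphoinositide 3-kinases are among the lipids that NCF1 binds. Of 13 tested genes of these kinases and lipid enzymes, 4 rose and 0 fell, beside 11.4% higher and 9.72% lower over all genes tested, with a median of 0.23. PAK1, a kinase activated by RAC that phosphorylates NCF1, held 98.2, 86.7 and 84.3 CPM in knockout replicates 1 to 3, against 40.2, 53.0 and 43.9 CPM in wild-type replicates 1 to 3 (log2 fold change 0.97, SE 0.12, edgeR adjusted p = 0.0081). PRKCD, a protein kinase C that phosphorylates NCF1, rose by 0.72 (SE 0.12, adjusted p = 0.0126). PIK3CD, a catalytic subunit, rose by 0.40 (SE 0.08, adjusted p = 0.0188), and PIK3R5, the regulatory partner of the gamma isoform, by 0.96 (SE 0.21, adjusted p = 0.023). PIK3CG, that isoform itself, had a log2 fold change of -0.15 and did not pass. Without wild-type replicate 3 or knockout replicate 1, 2 genes of the list were called, and on omission of knockout replicate 2 there were 3.

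Among the receptors that trigger the oxidase, 9 of 12 were tested, 1 rose and 3 fell, beside 11.4% higher and 9.72% lower over all genes tested, with a median of -0.05. ITGAM, the alpha chain of complement receptor 3, rose by 1.37 (SE 0.18, edgeR adjusted p = 0.00871), to 9.84 ± 1.46 CPM in knockout against 3.81 ± 0.52 CPM in wild type (SD, n = 3 each). Its beta chain ITGB2 was far more abundant and had a log2 fold change of 0.08 without a call. C5AR1, the receptor of complement C5a, held 0.923, 0.509 and 1.27 CPM in knockout replicates 1 to 3, against 6.42, 2.46 and 5.32 CPM in wild-type replicates 1 to 3 (log2 fold change -2.39, SE 0.46, adjusted p = 0.0172). CLEC7A, the beta-glucan receptor, fell by 1.65 (SE 0.33, adjusted p = 0.019) and TLR4, the endotoxin receptor, by 0.49 (SE 0.10, adjusted p = 0.0207). CLEC7A had few reads, with 20, 15 and 13 in knockout replicates 1 to 3 against 35, 62 and 57 in wild type. C5AR1 lost its call with effective length as an offset (-1.38, adjusted p = 0.139), and so did CLEC7A (-1.92, 0.0609). Omitting wild-type replicate 3 left 1 called gene in the list, and omitting knockout replicate 1 left 2. The formyl peptide receptor genes FPR1 and FPR2 reached at most 0.0769 and 0.115 CPM.

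Of 11 tested genes that handle superoxide and peroxide, 3 rose and 0 fell, beside 11.4% higher and 9.72% lower over all genes tested, with a median of 0.07, so the 3 calls are close to the 21.1% called over all genes. HVCN1, the proton channel that balances the charge moved by the oxidase, rose by 0.47 (SE 0.12, edgeR adjusted p = 0.0352), with 45.7, 36.8 and 48.0 CPM in knockout replicates 1 to 3, against 29.8, 29.8 and 34.7 CPM in wild-type replicates 1 to 3. MPO, which turns peroxide into hypochlorous acid, rose by 1.21 (SE 0.22, adjusted p = 0.0145), and the peroxiredoxin gene PRDX2 rose by 0.39 (SE 0.11, adjusted p = 0.0409). The superoxide dismutase genes SOD1 and SOD2 had log2 fold changes of 0.01 and -0.07, and CAT, the catalase gene, of -0.08. PRDX2 lost its call with the effective length offset (edgeR adjusted p = 0.0655) and on omission of any library but knockout replicate 3 (0.0737 to 0.134). HVCN1 lost its call on omission of any library but knockout replicate 2 (edgeR adjusted p 0.07 to 0.137). The MPO call was lost without wild-type replicate 3 (edgeR adjusted p = 0.0625). The list held 1 called gene without wild-type replicate 2 or knockout replicate 1, and 0 without wild-type replicate 3.

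Of 16 tested transcription factors known at oxidase promoters, 4 rose and 2 fell, beside 11.4% higher and 9.72% lower over all genes tested, with a median of 0.14. IRF8, which acts at the CYBB promoter, held 393, 302 and 279 CPM in knockout replicates 1 to 3, against 99.9, 172 and 122 CPM in wild-type replicates 1 to 3 (log2 fold change 1.31, SE 0.22, edgeR adjusted p = 0.0125). It thus rose where CYBB fell. IRF2 rose by 0.40 (SE 0.08, adjusted p = 0.0181), the myeloid factor gene CEBPA by 0.53 (SE 0.11, adjusted p = 0.0197), and ELF1, an ETS factor, fell by 0.58 (SE 0.09, adjusted p = 0.0116). With effective length as an offset IRF2 was not called (edgeR adjusted p = 0.124), and the list held 4 called genes. Named after their values were seen, SPI1, the myeloid ETS factor also called PU.1, rose by 0.29 (SE 0.07, adjusted p = 0.0275) and CEBPB fell by 0.90 (SE 0.21, adjusted p = 0.0268). Omitting wild-type replicate 3 left 1 called gene in the list, and omitting knockout replicate 1 left 2.

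**Figure D5:**
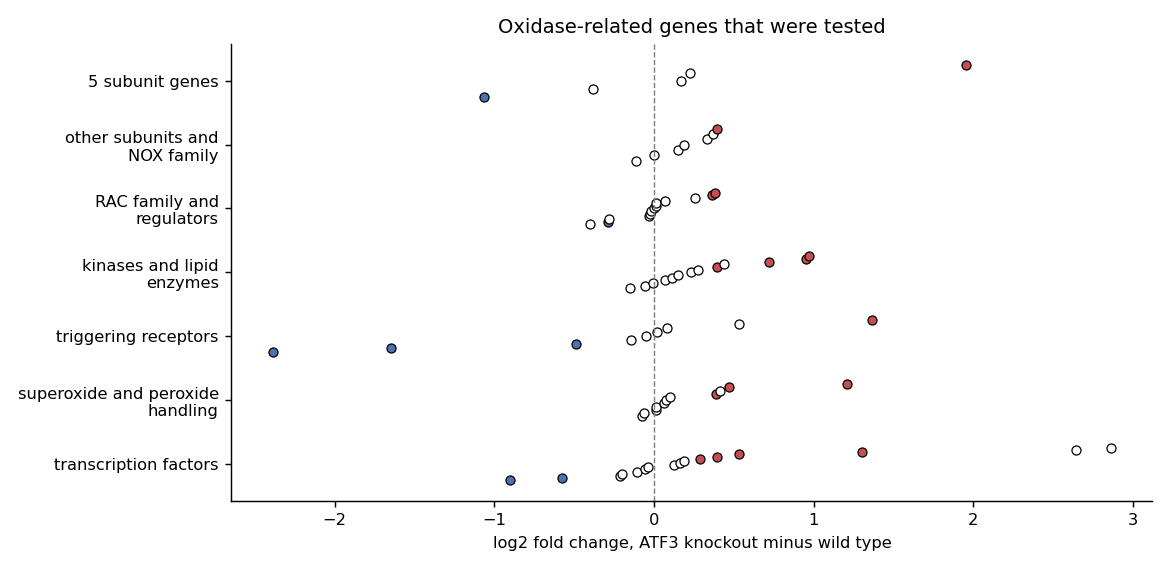
Log2 fold change (x axis), ATF3 knockout minus wild type, of every tested gene in the subunit set and the 6 related lists (rows), 1 point per gene, spread vertically for legibility. Filled points passed an edgeR adjusted p of 0.05 (red higher, blue lower), and the kinases and lipid enzymes hold 4 filled points, all to the right of 0.

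Promoter sequences of 3 of the 5 genes, CYBB, CYBA and NCF1, were matched in the RefSeq table (GRCh38.p14, 250 bases before to 50 after the gene start). Neither the ATF and CREB element TGACGTCA nor the AP-1 element TGANTCA, searched on both strands, was found in any of the 3, while 1.85% and 7.71% of all 35116 promoters hold them. The ETS-type element GAGGAAGT lies in the NCF1 promoter alone of the 3 (2.59% of all promoters). Its shorter part GAGGAA, also searched, lies in the promoters of both NCF1 and CYBB and not in that of CYBA. It is common, being held by 27.85% of all promoters, so these matches do not set NCF1 apart from CYBB. By the GENCODE 29 models used for the reads, CYBB and NCF1 start further upstream, at 37780011 and 74773962, inside these windows. By those models the GAGGAAGT match of NCF1 and the GAGGAA matches of both genes lie at or after the start, not before it. A match of letters does not show that a factor binds there.

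The genes whose values over the 6 libraries lay closest to each subunit gene were found by the distance between centred log2 CPM profiles, among 9759 other protein-coding genes with a mean of 5 CPM or more. Nearest to CYBB were the transcription factor gene MEF2C (distance 0.386), TMEM65, which encodes a mitochondrial membrane protein (0.398), and the DNA sensor gene IFI16 (0.463). MEF2C held 15.9, 21.7 and 12.03 CPM in knockout replicates 1 to 3, against 40.6, 48.5 and 30.7 CPM in wild-type replicates 1 to 3. Nearest to NCF1 were the calcium-binding protein gene S100A4 (0.415), the tyrosine kinase gene SRC (0.527) and the macrophage membrane protein gene MS4A4A (0.542). S100A4 held 214, 237 and 175 CPM in knockout replicates 1 to 3, against 44.5, 99.2 and 41.7 CPM in wild-type replicates 1 to 3.

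NCF4 lay nearest to the costimulatory ligand gene CD86 (0.513), the homeobox factor gene ONECUT2 (0.518) and CYTIP, a regulator of leukocyte adhesion (0.59). CYBA and RAC2 varied little, which makes small distances common, and lay 0.177 apart from each other. CYBA was nearest to the lysosomal enzyme receptor gene M6PR (0.0586), IDH2, a mitochondrial source of NADPH (0.0682), and the tRNA-modifying enzyme gene TRMT12 (0.0685). RAC2 was nearest to WDR6 (0.0337), the G protein subunit gene GNG5 (0.0412) and the anaphase-promoting complex gene ANAPC2 (0.0422). Among the subunit genes themselves CYBB lay 0.977 from NCF4 and 3.89 from NCF1, the widest distance of the 10 pairs.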

How the data were processed

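The authors deposited Salmon tables that give, per the file headers, an estimated count of reads and a TPM value for each of 177456 Ensembl transcripts. The submitters' processing notes name the build hg38, FastQC 0.11.9 and Salmon 1.6.0. Transcriptome release, library type and bias options were not given in the sources used here. Whether reads were assigned by strand is likewise not stated. Transcripts were joined to genes with GENCODE 29 (167027 matched), which may not be the authors' release. Left out were 10429 unmatched transcripts, with 3.59% to 3.82% of the reads. Estimated counts were summed per gene and rounded, and 93.0% of the deposited counts above 0 were not whole.

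Genotype was tested over all 6 libraries with edgeR 4.0.16 (R 4.3.3), by quasi-likelihood, with TMM factors and filterByExpr (minimum count 10). Adjustment was by Benjamini-Hochberg over 13131 genes, at 0.05. A standard error is the fold change divided by the root of its F statistic. A positive log2 fold change means higher in knockout, and log2 CPM used a prior count of 2. DESeq2 1.42.0, limma-voom (limma 3.58.1), other scalings, no filter, an effective length offset, a replicate block and the omission of each library were alternatives. Each transcript has 1 effective length, equal across the 6 tables. TPM served as values and not in a count test. The procedure was checked on simulated counts. Named list genes are the called members with the smallest p, up to 4 per list. Other list genes that appear by name, such as those not called, were picked outside this rule with their values known. The members and lists were chosen with earlier results of these data known. Symbols were current for 34878 of the 35052 genes. Estimated counts behind a gene limit its precision, and intervals cover the spread between these libraries. Some genes of the lists are not reported here by name, and the counts and medians of their lists include them.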

Additional observations from a re-analysis of the deposited data

How the results depend on the processing

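No direction of a subunit gene turned under any alternative run. With DESeq2, 4 of the 5 subunit genes were called, with CYBA at 0.22 and RAC2 at 0.16 added. With the effective length offset 1383 genes were called over the whole table, 0 in the list of other subunits and relatives, 1 among RAC regulators and 2 among receptors. Leaving out each library in turn, the log2 fold change ranged from -1.27 to -0.83 for CYBB, 0.19 to 0.30 for CYBA, 1.76 to 2.41 for NCF1, -0.63 to -0.05 for NCF4, 0.14 to 0.20 for RAC2 and -2.03 to -1.58 for ATF3, which missed the threshold without wild-type replicate 1 (-1.68, edgeR adjusted p = 0.0527). The number of called genes then ranged from 0 to 2 of the 5 subunit genes, from 0 to 2758 over all genes, from 0 to 1 among other subunits and relatives, 0 to 1 among RAC regulators, 0 to 4 among kinases and lipid enzymes, 0 to 5 among receptors, 0 to 2 among genes of superoxide and peroxide and 0 to 5 among transcription factors. Each of these counts was 0 without wild-type replicate 1. Of the 19 list genes followed singly, calls lost on omission of wild-type replicates 1, 2 and 3 numbered 19, 5 and 15, and on omission of knockout replicates 1, 2 and 3 they numbered 11, 6 and 3. The effective length offset cost 8 calls, and signs were kept throughout. The cause of these losses was not tested.

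Same-numbered knockout and wild-type libraries did not deviate together in every pair (correlations of -0.09, 0.11 and 0.20). The value of 0.20, for replicate 3, was the largest among all pairs of a knockout and a wild-type library. With so few libraries these correlations cannot show whether same-numbered libraries shared a culture or batch, and the labels do not say. With the replicate number as a block, 2318 genes were called over the whole table, the subunit values were -1.10 for CYBB and 2.02 for NCF1, both still called, and NCF4 stood at -0.45 (adjusted p = 0.123). Of the list genes, ARHGAP25 (adjusted p = 0.0818) and PRDX2 (0.0553) were not called with the block. Wild-type replicate 1 did not correlate best with its own number.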

Other observations

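Minor transcripts of the subunit genes also differed in share, although each holds few reads. The RAC2 transcript ENST00000405484.5 held 0.811% ± 0.069 of the RAC2 reads in knockout and 1.18% ± 0.032 in wild type (SD, n = 3 each), and its values did not overlap. The intron-retaining RAC2 transcript ENST00000469532.1 held 0.787% ± 0.061 in knockout and 0.564% ± 0.051 in wild type, and the intron-retaining CYBA transcript ENST00000562209.1 held 0.911% ± 0.11 in knockout and 0.754% ± 0.021 in wild type. These 3 were picked after all transcripts of the 5 genes had been seen, so they carry no test. The NCF1 transcript ENST00000488197.1, which retains an intron, had 15.1, 12.9 and 3.59 reads in knockout replicates 1 to 3 and 0 in every wild-type library. NCF1 as a whole had 131, 280 and 125 reads in wild-type replicates 1 to 3, against 793, 668 and 571 in knockout. The transcript's mean share was 1.49% in knockout, which would leave few reads in wild type. Its 0 values there therefore do not show a difference in share.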
